A study of Rattus norvegicus with 6 samples.

Results

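Interferon-stimulated genes are the set of genes that cells switch on after they sense an interferon. A list of 37 of these genes was followed in rat liver, and rows were taken from the gene table by symbol. A row was found for 36 of the 37, out of 20104 genes in the table, and all 36 passed the filter on low counts. Rigi had no row of that name and was not analysed here under it. A row called Rig1 is described in the table as an RNA sensor, and its values are given separately below.

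The tissue came from rats whose liver wound had been covered with a haemostatic dressing and was collected on day 14. AKOC was the dressing under test, with 3 samples. Its letters are not spelled out in the labels, but the series carries a title on cotton with kaolin scales. The controls, also 3 samples, had Quik-clot, sold for the same use. The question posed was how far the dressings differ in the chronic inflammation they leave behind. The labels give no strain, sex or age, and no uninjured liver is among the samples. Nor do they tie samples to animals. The p-values therefore measure the scatter among these samples, part or all of which may be technical. RNA was sequenced from whole liver tissue. Total counts per library ran from 40402312 to 41455378. Hepatocyte markers (6 genes, Alb among them) summed to 115288 to 175629 CPM (counts scaled to a common library total) in AKOC samples and 101272 to 150725 CPM in Quik-clot samples.

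Type I interferons bind a receptor whose kinases phosphorylate STAT2, among others. With IRF9 it enters a complex that binds the interferon-stimulated response element (ISRE) in the promoters of antiviral genes. Type II interferon, made mainly by T and NK cells, acts on another element, GAS, and through IRF1, and it drives guanylate-binding proteins strongly. In liver the response is best known from viral hepatitis, where hepatocytes and Kupffer cells both respond. In the gene annotation deposited with the table, 22 of the 36 genes (61.1%) carried the term defense response to virus, against 1.25% of the 13872 genes tested.

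The promoters were looked at for the letters of these elements, since interferon acts on its target genes through them. RefSeq promoter sequences of build GRCr8 were at hand for 28 of the 36 genes, and the 250 bases before each start were searched on both strands. The ISRE core, GAAA followed by any 2 bases and a second GAAA, was present in 18 of 28 promoters (64.3%), against 3.41% of 33469 promoters of rat genes. The GAS letters, TTC followed by any 3 bases and GAA, were present in 8 of 28 (28.6%), against 7.67%. Both were present in 6 of 28, against 0.430%. A match is a run of letters and not a shown binding site. Mx2, Ifit1, Ifit2, Isg15, Oas2, Usp18, Ifi27l2b and Dhx58 had no promoter entry. The stretches below belong to the genes that the later results turn on, read 5′ to 3′ along each gene, with the matching letters in capitals. Where the ISRE letters lie on the other strand they read as TTTC, any 2 bases and TTTC.
Ifi44l, farther match, chr2:243328617-243328656, plus strand: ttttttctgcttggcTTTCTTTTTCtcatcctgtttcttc
Ifi44l, nearer match, chr2:243328649-243328688, plus strand: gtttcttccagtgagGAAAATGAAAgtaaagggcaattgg
Irf1, GAS, chr10:38417778-38417816, plus strand: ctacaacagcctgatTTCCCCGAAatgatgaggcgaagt
Irf7, ISRE, chr1:205800068-205800107, minus strand: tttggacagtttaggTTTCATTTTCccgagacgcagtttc
Ifit3, ISRE, chr1:241527267-241527306, plus strand: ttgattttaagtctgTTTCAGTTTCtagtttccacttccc
Rsad2, ISRE, chr6:48788243-48788282, minus strand: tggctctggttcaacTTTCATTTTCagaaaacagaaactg
Gbp2, ISRE, chr2:234005681-234005720, plus strand: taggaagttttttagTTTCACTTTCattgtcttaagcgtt
Igtp, ISRE, chr10:42874929-42874968, plus strand: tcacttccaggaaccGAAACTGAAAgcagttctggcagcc
The ISRE letters of Ifit3 and Gbp2 lay 44 to 35 and 31 to 22 bases before the start, and those of Rsad2 farther away at 147 to 138 bases. Both printed matches of Ifi44l are ISRE letters, at 91 to 82 and 59 to 50 bases before the start. Ifi44l also held a GAS match, at 247 to 239 bases, which is not printed. In Igtp a GAS match, ttccaggaa, sits just ahead of the ISRE letters in the printed stretch. Stat2, Mx1, Cmpk2, Dtx3l, Herc6, Ifi35, Oasl and Parp9 held neither run of letters in this window.

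In the edgeR test no interferon-stimulated gene passed the threshold between the dressings, while DESeq2 called Ifi44l. What the data show is large variation between samples of the same dressing, with most of these genes high together in some samples and low together in others. AKOC replicate 1 held the highest level of 23 of the 36 genes, and Quik-clot replicate 1 the lowest level of 22. Of the 36, only Ifi44l was higher in every AKOC sample than in any Quik-clot sample, and Irf1 and Stat2 were the only genes lower in every AKOC sample. None of the 3 passed the adjustment over all genes in the edgeR test.

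The test was edgeR's quasi-likelihood test on the counts, with Benjamini-Hochberg adjustment over all 13872 genes tested and a threshold of 0.05. It called 0 of the 36 genes higher and 0 lower (background 0 in both directions), and the smallest adjusted p was 0.281, for Ifi44l. At an unadjusted p under 0.05 it gave 1 gene higher (Ifi44l; background 6.78%) and 2 lower (Irf1 and Stat2; background 5.69%). DESeq2 called 1 gene of the list higher, Ifi44l, and 0 lower, where it called 193 of all genes higher and 96 lower. The dressings did not overlap in 3 of the 36 genes, 1 higher (background 9.53%) and 2 lower (background 8.84%). Over all genes 18.4% did not overlap in either direction. The log2 fold change, AKOC over Quik-clot, was positive for 28 of 36 genes, where 48.0% of all genes were positive, and its median was 0.24 against -0.01 over all genes. That lean depended on which sample was left out. Leaving out AKOC replicate 1 gave 16 positive and 20 negative with a median of -0.05. Leaving out Quik-clot replicate 1 gave 19 positive and 17 negative with a median of 0.01. Each of the other 4 omissions left 27 to 31 positive, with medians of 0.19 to 0.38.

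**Figure D1:**
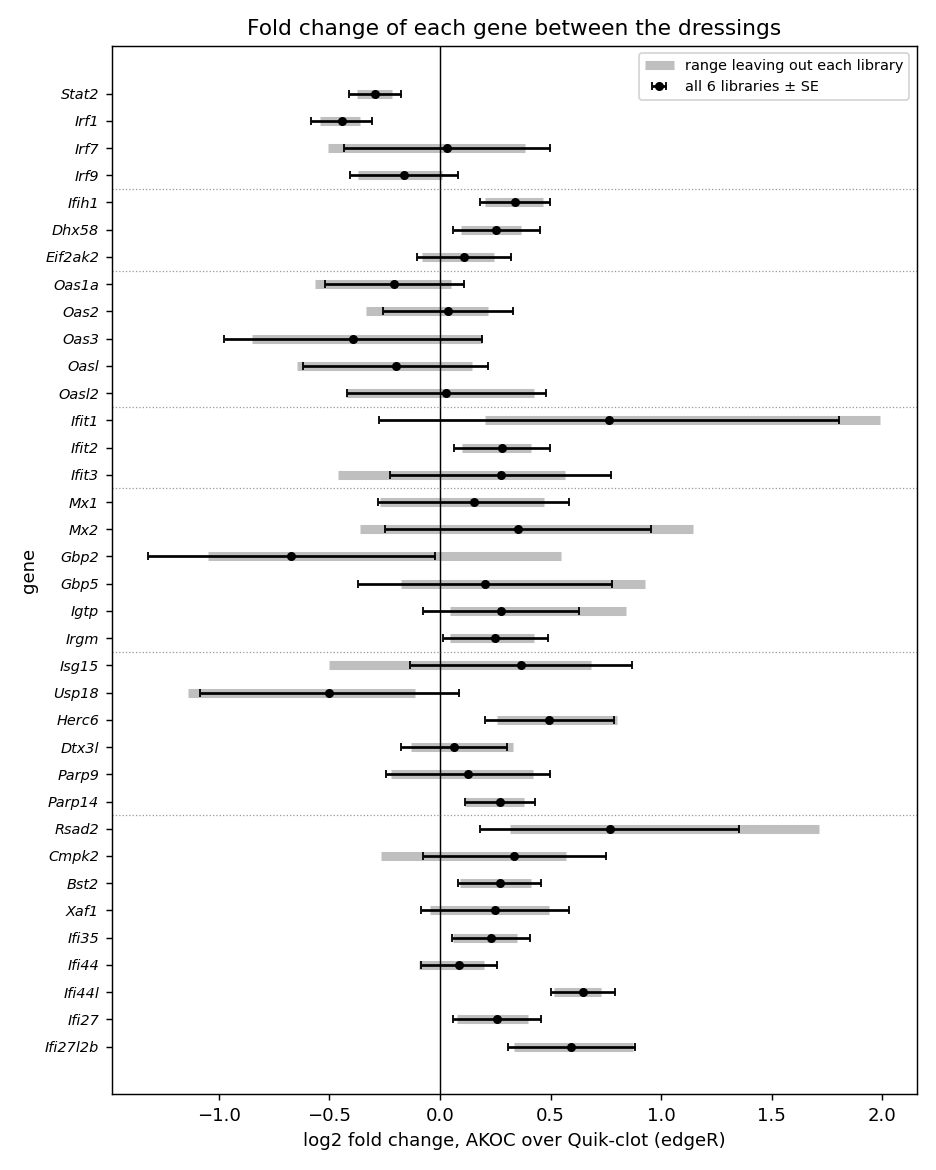
Log2 fold change of each of the 36 genes, AKOC over Quik-clot (points, all 6 libraries; bars, standard error), on the horizontal axis, with the genes in rows by role. Grey bars give the range when each library is left out in turn, and they cross 0 for 19 of the 36 genes but not for Ifi44l, Irf1 or Stat2.

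Levels below are CPM after trimmed-mean (TMM) scaling, given for replicates 1, 2 and 3 of each dressing in that order. Mean and SD are over 3 samples per dressing, and ± after a log2 fold change is its standard error (SE).

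The transcription factors of the pathway held both genes that were lower in every AKOC sample. Irf1, a factor induced by type II interferon in particular, stood at 21.1, 22.0 and 18.0 CPM in AKOC samples and 28.8, 30.5 and 23.7 CPM in Quik-clot samples. The highest AKOC sample thus lay below the lowest Quik-clot sample, and the means were 20.3 ± 2.10 and 27.7 ± 3.53 CPM. Its log2 fold change was -0.44 ± 0.14 (unadjusted p = 0.0142, edgeR adjusted p = 0.322). The separation was narrow, and in FPKM, which uses library totals only, AKOC replicate 1 (9.67) lay above Quik-clot replicate 3 (9.12). Some cell type markers lay lower in every AKOC sample as well, and others higher. The 6 sinusoidal endothelial markers summed to 328 to 359 CPM in AKOC samples and 365 to 429 CPM in Quik-clot samples, with Lyve1 and Pecam1 not overlapping. The T and NK cell sums, given below, did not overlap either, nor did Cd163 of the macrophage markers. Lower without overlap were 2 of 6 endothelial, 3 of 9 T and NK cell and 1 of 9 macrophage markers (background 8.84%). The other cell types listed had no such marker. Ttr of the hepatocyte markers and Reln of the stellate cell markers lay higher in every AKOC sample (background 9.53%). The part of these cell types in Irf1 and Stat2 was not tested. The promoter of Irf1 is the one printed above with a GAS match and no ISRE match.

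Stat2, a part of the type I complex, stood at 72.0, 59.1 and 63.9 CPM in AKOC samples and 73.8, 77.6 and 87.7 CPM in Quik-clot samples. These values did not overlap either, though AKOC replicate 1 and Quik-clot replicate 1 were close, and the log2 fold change was -0.29 ± 0.12 (unadjusted p = 0.0425, edgeR adjusted p = 0.391). Irf9, which binds DNA in that complex, had 24.7, 19.1 and 14.7 CPM after AKOC and 15.7, 23.9 and 25.7 CPM after Quik-clot. Irf7, which amplifies the type I response, had 45.6, 22.3 and 16.6 CPM after AKOC and 13.8, 39.7 and 29.4 CPM after Quik-clot. Irf7 differed 3.31-fold between its highest and lowest sample while the means of the dressings were nearly equal (28.2 ± 15.4 and 27.6 ± 13.1 CPM). Its log2 fold change of 0.03 ± 0.47 became -0.51 when AKOC replicate 1 was left out and 0.39 when Quik-clot replicate 2 was.

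Among the sensors of viral RNA, Ifih1, which encodes the sensor MDA5, had 37.6, 36.6 and 31.4 CPM after AKOC and 22.3, 28.8 and 32.3 CPM after Quik-clot. Only AKOC replicate 3 fell within the Quik-clot range, and the log2 fold change was 0.34 ± 0.16 (edgeR adjusted p = 0.421). Dhx58, the regulator LGP2, stood at 12.9, 10.5 and 9.65 CPM after AKOC and 7.09, 10.6 and 9.99 CPM after Quik-clot. Eif2ak2, the kinase PKR that halts translation, had 44.0, 35.98 and 31.2 CPM after AKOC and 24.7, 37.9 and 40.5 CPM after Quik-clot. In all 3 sensors the lowest sample was Quik-clot replicate 1 and the highest AKOC replicate 1. The row named Rig1, for which the RefSeq table lists Ddx58 as a synonym, showed 95.4, 77.0 and 75.8 CPM after AKOC and 47.4, 75.6 and 60.6 CPM after Quik-clot. Its AKOC samples all lay above its Quik-clot samples, by a narrow margin over Quik-clot replicate 2, with a log2 fold change of 0.43 ± 0.19 (edgeR adjusted p = 0.400).

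Oligoadenylate synthetases make the 2′-5′ linked messenger that activates RNase L. Oas1a had 19.5, 12.3 and 8.92 CPM after AKOC and 12.4, 13.9 and 20.8 CPM after Quik-clot. Oas2 was low, at 3.46, 1.95 and 1.75 CPM after AKOC and 2.18, 2.38 and 2.43 CPM after Quik-clot. Oas3 spanned a 6.29-fold range, with 2.40, 3.28 and 1.85 CPM in AKOC samples and 0.870, 5.48 and 3.57 CPM in Quik-clot samples. The extremes of Oas3 were therefore both Quik-clot samples, replicates 1 and 2. Oasl, a synthetase-like protein, had 9.07, 5.98 and 2.74 CPM after AKOC and 4.72, 7.95 and 7.78 CPM after Quik-clot. Its neighbour Oasl2 had 11.2, 7.05 and 3.60 CPM after AKOC and 4.42, 10.6 and 6.48 CPM after Quik-clot. Log2 fold changes of the 5 genes ran from -0.39 to 0.04 and edgeR adjusted p-values ran from 0.8004 to 0.984. For Oas2, Oas3 and Oasl2 the sign depended on the scaling or the test.

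IFIT proteins bind foreign RNA ends. Ifit2 stood at 44.5, 34.2 and 29.5 CPM in AKOC samples and 21.8, 34.6 and 32.7 CPM in Quik-clot samples. Ifit3 stood at 14.8, 5.28 and 4.61 CPM after AKOC and 3.85, 9.005 and 7.56 CPM after Quik-clot. AKOC replicate 1 was the highest sample for both and Quik-clot replicate 1 the lowest. Ifit1 went against this in a single sample. Its levels were 27.0, 13.8 and 14.7 CPM after AKOC and 8.92, 23.4 and 0.351 CPM after Quik-clot. Quik-clot replicate 3 gave 13 reads of Ifit1, where the other 5 samples gave 410 to 1204. The ratio of Ifit1 to Ifit2 in CPM was 0.0108 in that sample and 0.404 to 0.676 in the others, so Ifit2 was not low where Ifit1 was. Ifit1bl, a related gene, had 6.58, 3.10 and 1.46 CPM after AKOC and 1.13, 2.04 and 5.24 CPM after Quik-clot, second highest in the sample that was low in Ifit1. In the RefSeq table the Ifit1 gene lies inside the span of Ifit1bl, in GRCr8, a build other than the one the labels name. Whether reads were shared between them was not tested. The log2 fold change of Ifit1 was 0.76 ± 1.04 (edgeR adjusted p = 0.778). It became 0.20 without Quik-clot replicate 3 and 1.99 without Quik-clot replicate 2, and limma-voom gave 2.09.

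The interferon-induced GTPases showed more than 1 pattern. Mx1, a dynamin-like antiviral GTPase, had 21.1, 13.7 and 7.22 CPM after AKOC and 7.18, 17.0 and 13.7 CPM after Quik-clot. Mx2 had 68.8, 24.7 and 22.4 CPM after AKOC and 14.3, 20.7 and 55.9 CPM after Quik-clot. Mx2 was thus high in AKOC replicate 1 and in Quik-clot replicate 3 and stood at or below 24.7 CPM in the other 4 samples. Gbp2, a guanylate-binding protein, had 19.2, 21.0 and 10.3 CPM after AKOC and 10.7, 57.3 and 12.3 CPM after Quik-clot. Gbp5 had 9.25, 12.9 and 4.30 CPM after AKOC and 3.05, 13.7 and 6.24 CPM after Quik-clot. Igtp, an immunity-related GTPase, had 67.4, 63.3 and 51.6 CPM after AKOC and 32.8, 82.8 and 34.9 CPM after Quik-clot. These last 3 genes peaked in Quik-clot replicate 2, and that sample alone set the sign for Gbp2, whose log2 fold change was -0.67 ± 0.65 and became 0.55 without it. For Igtp the value was 0.28 ± 0.35 and became 0.84 without it (edgeR adjusted p = 0.0939). Irgm, of the same GTPase family, had 38.2, 50.04 and 30.9 CPM after AKOC and 24.3, 41.1 and 34.9 CPM after Quik-clot. None of the 6 GTPases had an edgeR adjusted p below 0.672 with all samples.

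Quik-clot replicate 2 was also the sample with the most T and NK cell RNA. The 9 markers listed for these cells summed to 10.9 to 14.7 CPM in AKOC samples and 15.2 to 41.3 CPM in Quik-clot samples, with the 41.3 CPM in Quik-clot replicate 2, and 8 of 9 markers peaked there. Gzma, a granzyme of these cells, stood at 3.08 to 3.42 CPM in AKOC samples, and at 14.0 CPM in Quik-clot replicate 2 and 4.24 and 4.29 CPM in the other Quik-clot samples. The 9 macrophage and Kupffer cell markers all peaked in the same sample too. Their sum was 807 to 1164 CPM in AKOC samples, and 1631 CPM in Quik-clot replicate 2 and 950.2 and 1182 CPM in the other Quik-clot samples. The part of these cells in the levels of Gbp2, Gbp5 and Igtp was not tested. In whole tissue, more cells of a type and more RNA per cell cannot be told apart.

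**Figure D2:**
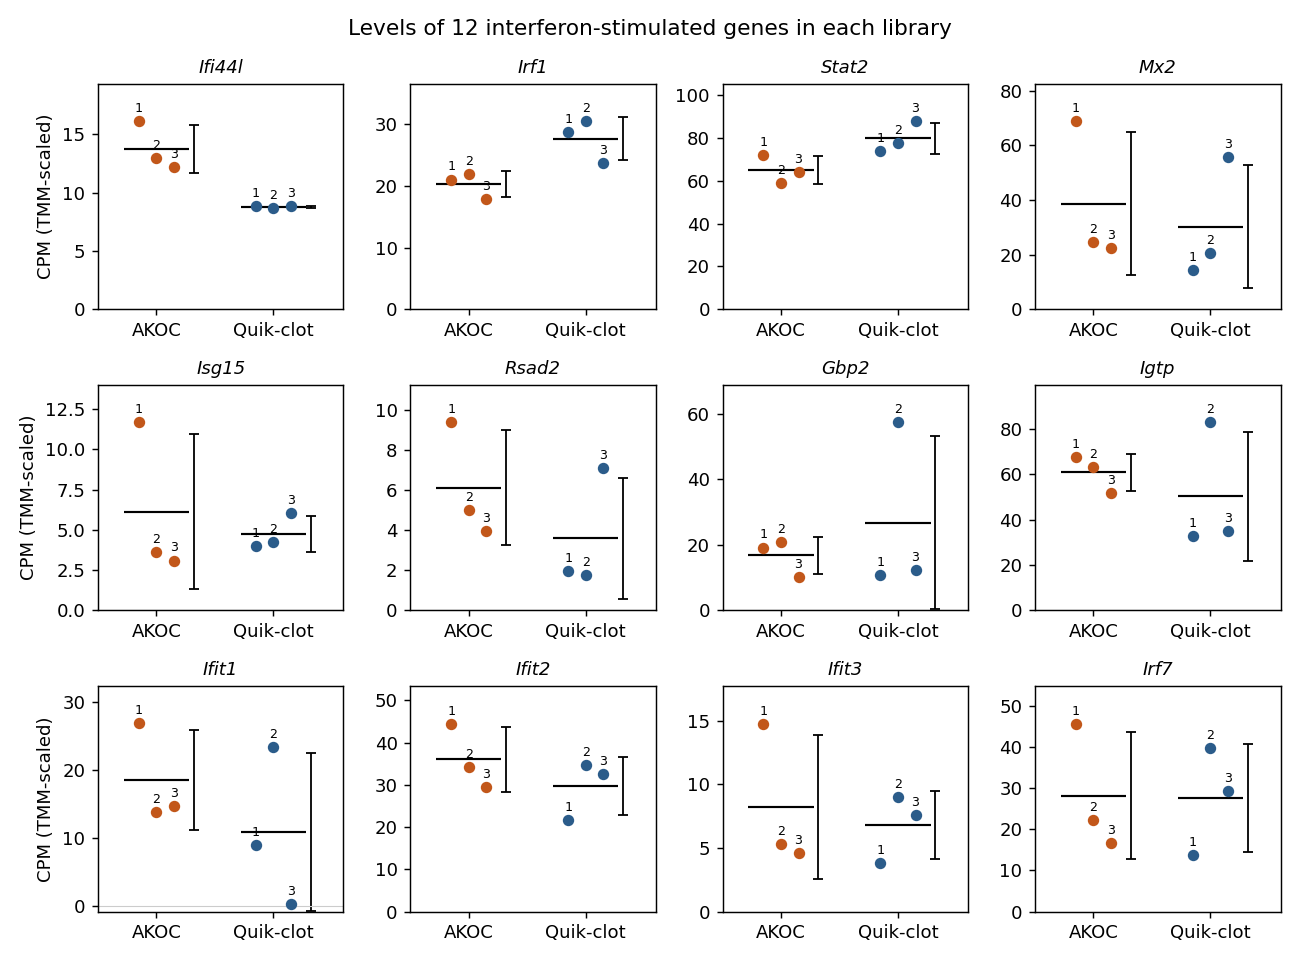
CPM (vertical axes, linear, each panel with its own range) of 12 genes in the 3 AKOC and the 3 Quik-clot samples, with replicate numbers beside the points, a line at the mean and a bar for the SD. Ifi44l, Irf1 and Stat2 separate the dressings, Mx2, Isg15 and Ifit3 are led by AKOC replicate 1, Gbp2 and Igtp by Quik-clot replicate 2, and Ifit1 is 0.351 CPM in Quik-clot replicate 3.

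ISG15 is a ubiquitin-like protein that HERC6 attaches to other proteins in mice and USP18 removes, and USP18 also damps the receptor. Isg15 had 11.7, 3.63 and 3.10 CPM in AKOC samples and 4.02, 4.24 and 6.05 CPM in Quik-clot samples. AKOC replicate 1 held 2.90 times the median of the other 5 samples, while AKOC replicates 2 and 3 lay below every Quik-clot sample. The log2 fold change of Isg15 was accordingly 0.37 ± 0.50 with all samples and -0.50 without AKOC replicate 1. Usp18 had 16.4, 6.51 and 5.81 CPM after AKOC and 4.59, 20.0 and 16.2 CPM after Quik-clot. Herc6 had 22.5, 12.5 and 16.8 CPM after AKOC and 8.96, 10.9 and 17.0 CPM after Quik-clot. Usp18 and Herc6 leaned in opposite directions, with log2 fold changes of -0.50 ± 0.59 and 0.50 ± 0.29, and neither passed (edgeR adjusted p = 0.738 and 0.507). Leaving out each sample in turn, Usp18 ran from -1.14 to -0.11 and Herc6 from 0.26 to 0.80.

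Parp9 and Dtx3l encode partners in a complex that ADP-ribosylates and ubiquitinates, and their genes overlap in the RefSeq table. Parp9 had 106, 93.1 and 73.9 CPM in AKOC samples and 38.2, 114 and 97.8 CPM in Quik-clot samples. Dtx3l had 59.9, 52.0 and 42.0 CPM after AKOC and 34.9, 65.9 and 46.6 CPM after Quik-clot. Parp14, next to Dtx3l, had 121, 93.5 and 86.2 CPM after AKOC and 75.5, 94.9 and 78.5 CPM after Quik-clot. All 3 were lowest in Quik-clot replicate 1. Parp14 had the steadiest difference of them, a log2 fold change of 0.27 ± 0.16 that stayed between 0.11 and 0.38 when any sample was left out (edgeR adjusted p = 0.509).

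Among the other effectors, all 9 had positive log2 fold changes, from 0.09 to 0.77, against 48.0% positive over all genes. Of these genes 8 peaked in AKOC replicate 1, and when it was left out Cmpk2 (-0.27), Xaf1 (-0.046) and Ifi44 (-0.096) were negative. Ifi44 was also negative in the FPKM fits. Ifi44l, a protein of little-known antiviral function, had 16.1, 12.9 and 12.2 CPM in AKOC samples and 8.83, 8.66 and 8.83 CPM in Quik-clot samples. Every AKOC sample lay well above every Quik-clot sample, and the Quik-clot samples were nearly equal. The means were 13.7 ± 2.09 and 8.78 ± 0.0988 CPM, with a log2 fold change of 0.65 ± 0.14 (unadjusted p = 0.00254, edgeR adjusted p = 0.281). DESeq2 gave an adjusted p of 0.0239, and over the other 16 alternatives the adjusted p ran from 0.164 to 0.705. Leaving out any sample kept the log2 fold change between 0.52 and 0.73. Ifi44, its neighbour in the genome, had 17.1, 11.5 and 12.9 CPM after AKOC and 12.7, 14.3 and 12.1 CPM after Quik-clot. The dressings overlapped fully in Ifi44 (log2 fold change 0.09 ± 0.17). Its promoter also holds the ISRE letters, and a link between these letters and the fold changes was not tested.

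Ifi27, a small membrane protein, and its relative Ifi27l2b had the highest levels per transcript length of the list. Ifi27 stood at 292, 238 and 233 CPM in AKOC samples and 155, 231 and 252 CPM in Quik-clot samples. Ifi27l2b stood at 172, 149 and 115 CPM in AKOC samples and 58.7, 130.2 and 99.8 CPM in Quik-clot samples. Both were lowest in Quik-clot replicate 1, and the log2 fold change of Ifi27l2b was 0.59 ± 0.29 (edgeR adjusted p = 0.436). Bst2, the tetherin that holds budding virus at the membrane, had 179.7, 271 and 211 CPM after AKOC and 163, 217 and 169 CPM after Quik-clot. It was highest in AKOC replicate 2, so it did not share the peak of the other effectors.

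Rsad2, the radical SAM enzyme viperin, and Cmpk2, a nucleotide kinase whose gene lies next to it, act on the nucleotide pool. Rsad2 had 9.36, 4.99 and 3.96 CPM after AKOC and 1.98, 1.74 and 7.08 CPM after Quik-clot. Cmpk2 had 6.76, 2.59 and 2.71 CPM after AKOC and 2.41, 4.12 and 3.02 CPM after Quik-clot. The genes shared their peak in AKOC replicate 1 and not their order in the Quik-clot samples, where Rsad2 was lowest in replicate 2 and Cmpk2 highest there. Rsad2 had a log2 fold change of 0.77 ± 0.59, close to that of Ifit1, and it ran from 0.32 without AKOC replicate 1 to 1.72 without Quik-clot replicate 3 (edgeR adjusted p = 0.606 with all samples). Xaf1, which promotes cell death, had 24.1, 17.4 and 11.3 CPM after AKOC and 9.40, 19.5 and 15.6 CPM after Quik-clot. Ifi35 had 25.5, 19.5 and 17.4 CPM after AKOC and 19.2, 18.9 and 15.04 CPM after Quik-clot. Neither gene separated the dressings.

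**Figure D3:**
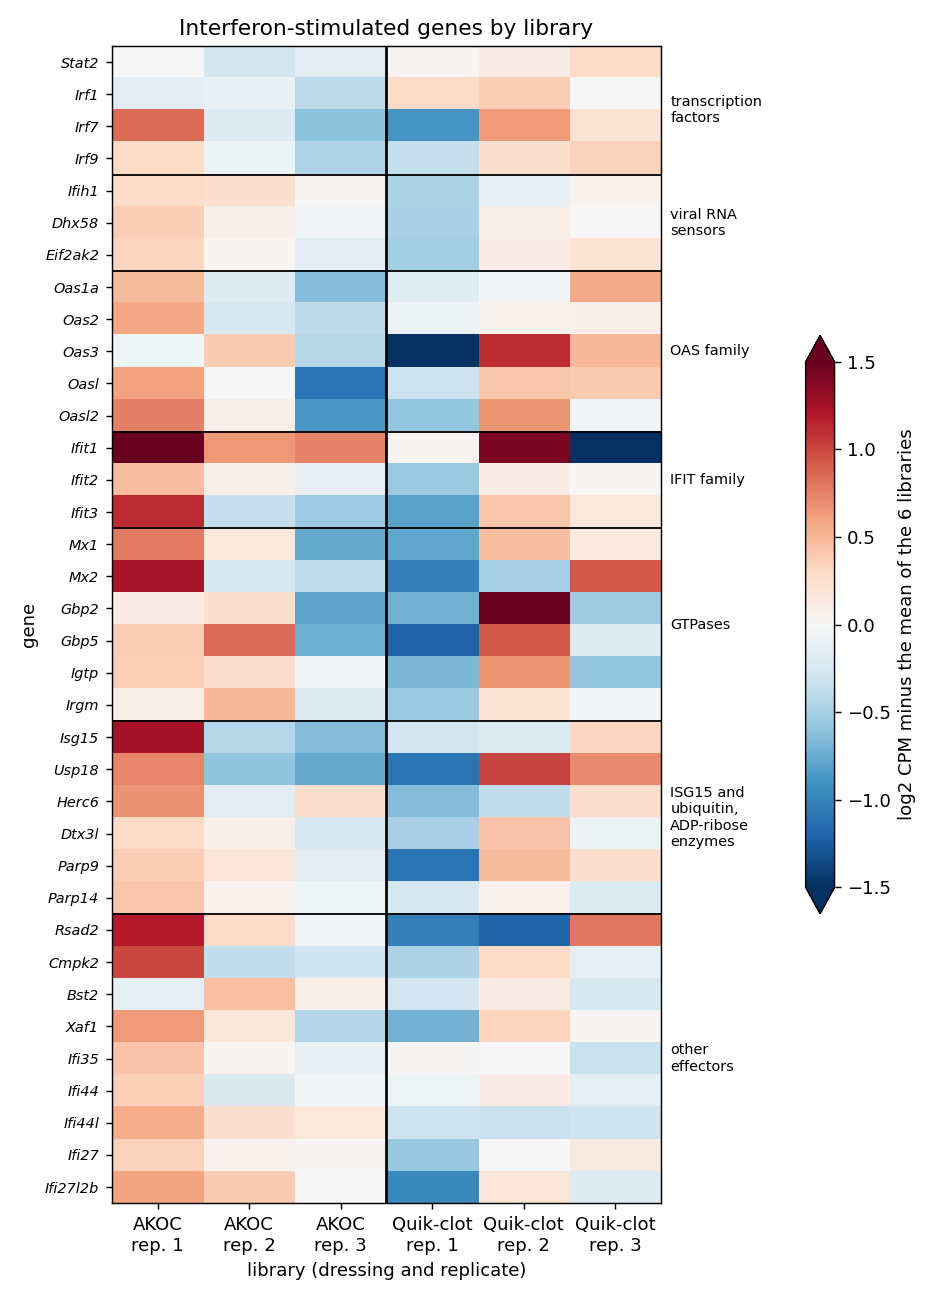
Log2 CPM (prior count of 2) of the 36 genes minus the mean of the 6 samples, with genes in rows by role and samples in columns, AKOC left of the vertical line. AKOC replicate 1 is above the mean in 33 of 36 genes and Quik-clot replicate 1 in 4 of 36, while colours reach their end at 1.5 on either side.

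In AKOC replicates 1 and 3 and Quik-clot replicates 1 and 2, most of the genes deviated in the same direction, across the roles. The median deviation of the 36 genes from their own mean over 6 samples was 0.45, 0.07 and -0.21 (log2 CPM) in AKOC replicates 1, 2 and 3 and -0.53, 0.19 and 0.04 in Quik-clot replicates 1, 2 and 3. Over all genes tested the same medians stayed between -0.008 and 0.012. AKOC replicate 1 was above the mean in 33 of 36 genes, and Quik-clot replicate 1 in 4 of 36. AKOC replicate 3 was above it in 7 and Quik-clot replicate 2 in 28. AKOC replicate 2 and Quik-clot replicate 3, with 23 and 22, had roles on both sides of the mean. In AKOC replicate 2 the median was -0.15 for the transcription factors and 0.25 for the GTPases. In Quik-clot replicate 3 it was 0.39 for the OAS family and -0.15 for the other effectors. The SD between samples of a dressing, as a median over the 36 genes, was 0.39 (log2 CPM) after AKOC and 0.41 after Quik-clot, against 0.20 and 0.24 over all genes tested.

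AKOC replicate 1 held the highest level in 63.9% of the 36 genes, against 14.0% of all genes tested. Quik-clot replicate 1 held the lowest level in 61.1%, against 20.3% of all genes. Isg15, Mx2, Ifit3, Usp18, Cmpk2, Rsad2 and Irf7 stood in AKOC replicate 1 at 2.05 to 3.07 times the median of the other 5 samples, and 17 of the 36 genes stood at 1.5 times or more. At the other end were Oas3 at 0.732 times, Bst2 at 0.852 times and Irf1 at 0.888 times. AKOC replicate 1 was looked at because it led the list, and the share of all genes at 1.5 times was not computed. Without AKOC replicate 1, Quik-clot replicate 2 held the highest level of 20 of the 36 genes, against 19.5% of all genes tested. Quik-clot replicate 3 then held 10, against 22.7%, and AKOC replicate 2 held 6, against 16.3%. Without Quik-clot replicate 1, AKOC replicate 3 held the lowest level of 21 genes, against 21.8%. Some marker sums were extreme in the same samples. B and plasma cell markers were highest in AKOC replicate 1, at 113 CPM against 64.4 to 99.9 CPM elsewhere. That sum was mostly Jchain, and 2 of the 5 markers peaked there. T and NK cell markers had their lowest sum in AKOC replicate 1, at 10.9 CPM against 11.3 to 41.3 CPM elsewhere, with 3 of 9 lowest there. The neutrophil markers (S100a8 and S100a9 among them) had their lowest sum in Quik-clot replicate 1, at 8.03 CPM against 12.1 to 116 CPM elsewhere, with 3 of 6 lowest there. Plasmacytoid dendritic cell markers had their lowest sum in Quik-clot replicate 1, at 26.6 CPM, and their highest in Quik-clot replicate 2, at 44.6 CPM. Of these 5 markers, Irf8 alone was lowest in Quik-clot replicate 1, and Irf8 alone was highest in Quik-clot replicate 2. Stellate cell markers were lowest in Quik-clot replicate 1 too, at 66.4 CPM against 99.4 to 128 CPM, with 3 of 5 lowest there. The hepatocyte sum was lowest there as well, with 3 of 6 lowest, Alb and Tf among them, while Cps1 was highest there. Their part in the levels of the interferon-stimulated genes was not tested.

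**Figure D4:**
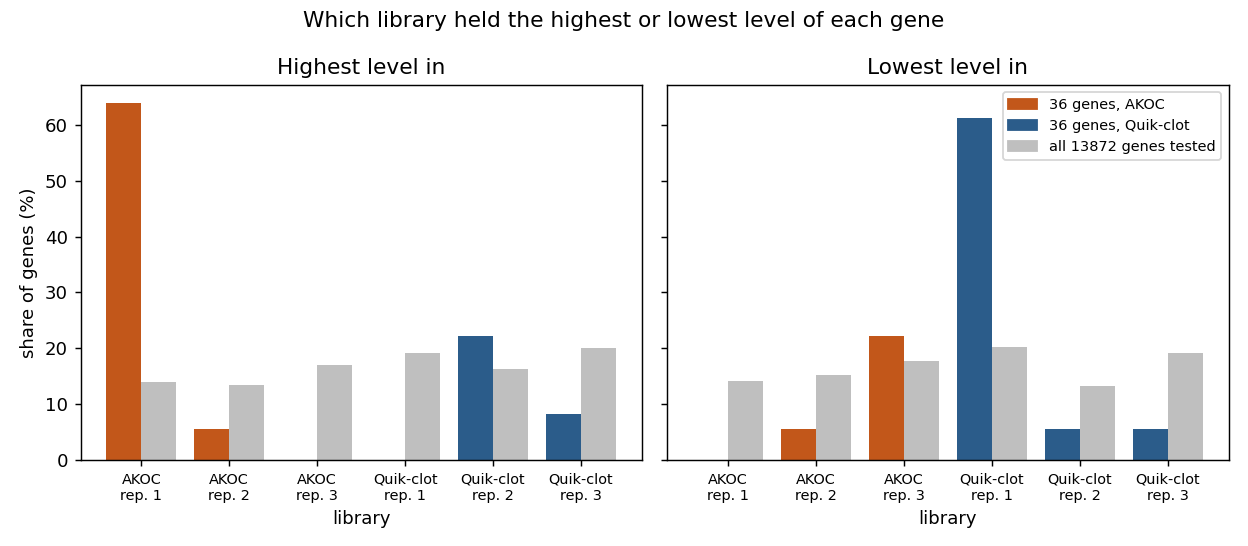
Share of genes (%) whose highest (left) or lowest (right) CPM fell in each sample, for the 36 interferon-stimulated genes (coloured bars) beside all 13872 genes tested (grey bars). AKOC replicate 1 has the highest level in 63.9% of the 36 genes and Quik-clot replicate 1 the lowest in 61.1%, where the grey bars lie between 13.3% and 20.3%.

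Levels between genes were compared in FPKM, fragment counts scaled by transcript length and library total, as deposited by the authors. Ifi27 (270 FPKM, mean of 6 samples), Ifi27l2b (268 FPKM) and Bst2 (126 FPKM) stood far above the rest, the next being Igtp at 26.5 FPKM. The lowest were Oas2 (0.642 FPKM), Oas3 (0.705 FPKM) and Cmpk2 (1.203 FPKM). Ifi27 and Ifi27l2b overlapped in range over the samples, at 201 to 364 and 146 to 411 FPKM, and so did Oas2 and Oas3, at 0.446 to 1.002 and 0.238 to 1.43 FPKM. In 22 of the 36 genes the highest sample had at least 2 times the CPM of the lowest, and the share over all genes was not computed. The range was under 1.5-fold in Stat2 and Ifi44 only.

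Other genes of the pathway were counted from a list of 81 symbols, of which 73 had a row and 69 were tested. The interferon genes on the list, Ifnb1, Ifng, Ifnk, Ifne and Ifnl3, were not analysed here. None of the 69 passed the threshold (0 higher and 0 lower, edgeR), with 35 positive and 34 negative and a median log2 fold change of 0.01. Those with an unadjusted p under 0.05 were 3 higher genes (Isg20, Helz2 and Trim34; background 6.78%) and 3 lower genes (Tlr7, Ifitm3 and Trim25; background 5.69%). The dressings did not overlap in 3 higher genes (Isg20, Helz2 and Ifngr2; background 9.53%) and 3 lower genes (Tlr7, Ifitm3 and Socs3; background 8.84%). DESeq2 called 1 of the 69 lower, Tlr7 (adjusted p = 0.00913), where it called 96 of all 13872 genes tested lower.

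Tlr7, an endosomal sensor of single-stranded RNA found in dendritic cells and macrophages, had 5.09, 4.72 and 3.55 CPM after AKOC and 7.70, 11.2 and 7.81 CPM after Quik-clot. The dressings did not overlap in Tlr7 and its log2 fold change was -0.996 ± 0.22 (unadjusted p = 0.00246, edgeR adjusted p = 0.281). All 9 macrophage and Kupffer cell markers had negative log2 fold changes, among them Cd163 at -0.51 ± 0.15, without overlap, and Csf1r at -0.59 ± 0.23 (edgeR adjusted p = 0.312 and 0.382). The 8 T and NK cell markers tested and the 6 sinusoidal endothelial markers were all negative too, while 48.0% of all genes tested were positive. Of the plasmacytoid dendritic cell markers tested, Siglech (1.08 ± 0.54) and Spib (0.37 ± 0.57) had positive values. Tcf4 (-0.04 ± 0.18) and Irf8 (-0.23 ± 0.28) had negative values, and all 4 overlapped between the dressings. The part of these cells in the level of Tlr7 was not tested. Isg20, an exonuclease that degrades viral RNA, had 5.09, 4.19 and 6.28 CPM after AKOC and 3.02, 2.27 and 3.16 CPM after Quik-clot. Isg20 did not overlap either, in the other direction, with 0.88 ± 0.23 (edgeR adjusted p = 0.295). Ifitm3, which blocks viral entry, had 164, 148 and 135 CPM after AKOC and 194, 185 and 239 CPM after Quik-clot, with -0.47 ± 0.14 (edgeR adjusted p = 0.319). Helz2, a transcriptional coactivator, was at 73.8 to 79.3 CPM after AKOC and 62.2 to 66.3 CPM after Quik-clot, with 0.26 ± 0.09 (edgeR adjusted p = 0.361). The ubiquitin ligase gene Trim25, which helps RNA sensing, had 30.4, 29.6 and 33.0 CPM after AKOC and 55.7, 43.6 and 31.7 CPM after Quik-clot (-0.50 ± 0.20, edgeR adjusted p = 0.388). Trim34 had 15.01, 12.4 and 13.2 CPM after AKOC and 7.83, 12.6 and 7.54 CPM after Quik-clot (0.53 ± 0.22, edgeR adjusted p = 0.391). In both genes a single Quik-clot sample lay within the AKOC range.

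Receptors and kinases did not pass the threshold either. Of the 5 receptor chains tested, Ifngr2, of the type II receptor, was the only one whose dressings did not overlap, at 14.1, 17.5 and 14.5 CPM after AKOC and 11.2, 13.4 and 12.6 CPM after Quik-clot (log2 fold change 0.31 ± 0.14, edgeR adjusted p = 0.408). Ifnar1 and Ifnar2, of the type I receptor, had -0.10 ± 0.13 and -0.16 ± 0.23. The chemokine gene Cxcl9 peaked in Quik-clot replicate 2 like Gbp2 and Igtp, with 5.27 to 11.3 CPM in AKOC samples, and 13.8 CPM in Quik-clot replicate 2 and 2.57 and 3.83 CPM in the other Quik-clot samples. The immunoproteasome gene Psmb9 also peaked there and had 28.2 to 35.1 CPM in AKOC samples, and 48.1 CPM in Quik-clot replicate 2 and 11.5 and 20.9 CPM in the other Quik-clot samples. Over the 69 pathway genes Quik-clot replicate 2 held the highest level in 27, against 16.3% of all genes tested. AKOC replicate 1 held it in 14, against 14.0%. Socs3, a feedback inhibitor, had 10.8, 11.1 and 5.71 CPM after AKOC and 11.4, 11.96 and 50.2 CPM after Quik-clot, with Quik-clot replicate 3 far above the rest. Its log2 fold change of -1.42 ± 0.60 became -0.35 when that sample was left out (edgeR adjusted p = 0.400 with all samples).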

How the data were processed

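The authors deposited raw read counts for each gene, and FPKM values for the same libraries beside them. Per the submitters' processing notes, fastp, HISAT2 and HTSeq were used with build mRatBN7.2. No source used here gives versions, annotation, strand setting or the way FPKM was computed. The 2 tables hold the same measurement: lengths implied by count and FPKM agreed between libraries to a relative 8.76e-07. Related or overlapping genes (Ifit1 and Ifit1bl, the Oas1 genes, Ifi27 and Ifi27l2b, Parp9 and Dtx3l) may share reads.

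The filterByExpr function of edgeR 4.0.16 (R 4.3.3; minimum count 10, minimum total 15) kept 13872 of 20104 genes. Trimmed mean of M values factors ran from 0.902 to 1.12. The quasi-likelihood model held only a dressing term, and its p-values are two-sided. The model was also run on simulated counts drawn separately for each gene, so that run does not cover genes that move together between samples. With 3 against 3 samples the smallest two-sided exact permutation p is 0.1, so no gene was tested that way. Alternatives used DESeq2 1.42.0, limma 3.58.1 and other settings. No pair of libraries agreed within sampling noise. Promoters came from RefSeq (GRCr8), and all 36 gene IDs matched its gene table. Gene names follow a fixed rule: every member with its 6 values, and pathway genes at an unadjusted p under 0.05 or without overlap. Ifnar1, Ifnar2, Cxcl9, Psmb9 and the related rows Rig1 and Ifit1bl were picked with their values in view. The members and lists were chosen with earlier results of these data known.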

Additional observations from a re-analysis of the deposited data

How the results depend on the processing

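DESeq2 called 1 member higher and 0 lower, 1 pathway gene, Tlr7, lower, and 193 of all genes higher and 96 lower, where edgeR called 0 of each. At an unadjusted p under 0.05, DESeq2 and limma-voom each gave 2 members higher, against 1. Members lower were 1, against 2, with library totals only, without the filter, with limma-trend on log2(FPKM + 1), with or without the filter, and log2(FPKM + 0.1), with the replicate block, and with the legacy quasi-likelihood method, chosen after seeing the data. In FPKM 1 member was lower without overlap, against 2. With the replicate block 1 of all genes was called higher. Replicate numbers did not pair the samples (correlations -0.07, -0.08 and -0.20), so the block says nothing of pairing. It turned Irf7 to -0.023, Oas2 to -0.029 and Oasl2 to -0.048 (log2 fold change throughout). Other changes of sign were Irf7 -0.012, Oas2 -0.079, Oas3 0.075 and Oasl2 -0.014 with limma-voom, Oas2 -0.0068, Oasl2 -0.012 and Dtx3l -0.0016 with library totals, Irf7 -0.044, Oas2 -0.019, Oasl2 -0.0504 and Ifi44 -0.0010 with log2(FPKM + 1), with or without the filter, and Irf7 -0.0496, Oas2 -0.082, Oasl2 -0.095 and Ifi44 -0.0052 with log2(FPKM + 0.1). The cause was not tested. Leaving out each sample in turn gave 0 to 12 of all genes called higher and 0 to 6 lower, 1 to 4 members higher and 0 to 3 lower at an unadjusted p under 0.05, and a median member value of -0.05 to 0.38. Members whose sign changed ran, across these omissions, as follows: Irf7 -0.51 to 0.39, Irf9 -0.37 to 0.0090, Eif2ak2 -0.082 to 0.25, Oas1a -0.57 to 0.051, Oas2 -0.33 to 0.22, Oas3 -0.85 to 0.19, Oasl -0.65 to 0.15, Oasl2 -0.43 to 0.42, Ifit3 -0.46 to 0.56, Mx1 -0.27 to 0.47, Mx2 -0.36 to 1.15, Gbp2 -1.05 to 0.55, Gbp5 -0.18 to 0.93, Isg15 -0.50 to 0.68, Dtx3l -0.13 to 0.33, Parp9 -0.22 to 0.42, Cmpk2 -0.27 to 0.57, Xaf1 -0.046 to 0.50 and Ifi44 -0.10 to 0.20. The other 17 members, Ifi44l, Irf1 and Stat2 among them, kept their sign under every alternative run.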
